A study of Homo sapiens with 6 samples.

Results

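Heat shock chaperones are the proteins that fold, refold and hold other proteins, and 81 of the 16934 genes in the count table belong to them by the rule used here. The rule took symbols that begin with HSPA, HSPB, HSPD, HSPE or HSPH and a digit, HSP90A, DNAJA, DNAJB or DNAJC, the BAG genes BAG1 to BAG6, the chaperonin subunits CCT2 to CCT8, and the heat shock factors HSF1 and HSF2. Glucose-regulated HSPA5 and the endoplasmic reticulum DNAJ genes DNAJB9, DNAJB11, DNAJC3 and DNAJC10 were left out, so that mostly cytosolic and mitochondrial proteins remain. The name is not exact. HSPA13, DNAJC1, DNAJB12 and DNAJB14, among others, also encode proteins of the endoplasmic reticulum and were picked by the rule. TCP1, a subunit of the same chaperonin as CCT2 to CCT8, was not picked.

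The cells were A375, an established human melanoma line, grown in DMEM with heat-inactivated fetal bovine serum. One group of 3 libraries came from A375 cells edited by CRISPR-Cas9 with an sgRNA against POLK, the gene of the translesion DNA polymerase kappa, and the other 3 came from A375 cells that received a non-targeting control sgRNA through the same procedure. Neither a heat shock nor a drug is named for either group. The labels do not say whether the edited cells were a pool or 1 clone, nor whether libraries with the same sgRNA were grown as separate cultures. P-values therefore reflect only how far these 3 and 3 libraries vary, and that variation may be technical.

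In the cytosol, HSP70 binds exposed hydrophobic stretches of unfolded proteins in a cycle driven by ATP. DNAJ proteins (HSP40) deliver clients to it and speed up hydrolysis, while BAG and HSP110 proteins exchange the nucleotide and release the client. HSP90 completes the folding of kinases and steroid receptors, the small heat shock proteins hold unfolded clients without ATP, and the CCT ring encloses actin and tubulin. Mitochondria have their own HSP70, HSPA9, and the chamber formed by HSPD1 and HSPE1. On heat or proteotoxic stress, HSF1 binds heat shock elements, which are inverted repeats of GAA and TTC, and raises transcription of many of these genes. Melanoma cells, like other tumour cells, keep high basal levels of several of them.

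Each library held between 46559658 and 56891905 counts with POLK sgRNA and between 42852645 and 55003324 with control sgRNA. POLK itself had 19.2, 17.2 and 18.1 CPM (counts scaled to a common library size) with POLK sgRNA, against 23.4, 24.0 and 22.4 CPM with control sgRNA. Of the melanocyte lineage markers, SOX10 was high, at 1155 CPM with POLK sgRNA and 1060 CPM with control sgRNA on average (n = 3 each), whereas the pigment genes PMEL, MLANA, TYRP1, DCT and TYR stayed under 1 CPM on average in both groups. Markers of other cell types also moved with the groups. The 5 leukocyte markers summed to 58.1 to 60.3 CPM with POLK sgRNA and 17.6 to 18.0 CPM with control sgRNA. Almost all of that sum was CD68 and LYZ, with PTPRC and CD3E at or near 0. The 5 fibroblast markers summed to 26.8 to 27.0 CPM with POLK sgRNA and 15.5 to 15.9 CPM with control sgRNA, and the 5 epithelial markers to 149 to 155 CPM with POLK sgRNA and 100.2 to 102 CPM with control sgRNA. PDGFRB made up most of the fibroblast sum, while COL1A2 was lower with POLK sgRNA and COL1A1 overlapped between the groups. KRT18 and KRT8 made up almost all of the epithelial sum, with EPCAM, KRT19 and CDH1 under 1 CPM on average in both groups. LYZ, LUM, DCN, KRT8 and KRT18 lie on chromosome 12, among nearby genes with median log2 fold changes of 0.54 to 0.62. The markers' own log2 fold changes were 2.53 for LYZ, 3.4 for LUM, 3.61 for DCN, 0.42 for KRT8 and 0.61 for KRT18. LYZ, LUM and DCN thus rose far more than the nearby genes, while KRT8 and KRT18 lay close to them. LUM and DCN were under 1 CPM on average with control sgRNA. The part of these markers in the chaperone results was not tested, and in bulk RNA fewer cells of a type and less RNA per cell cannot be told apart.

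Taken as one pool, the 81 chaperone genes held 1.78% of all counts with POLK sgRNA and 1.81% with control sgRNA. Their summed level was 17852, 17739 and 17716 CPM with POLK sgRNA, against 17931, 18181 and 18210 CPM with control sgRNA. The groups did not overlap, but the POLK sgRNA mean was still 98.1% of the control sgRNA mean. Beneath that near-constant sum, single genes moved in both directions. With POLK sgRNA the small heat shock protein HSPB8 was several times higher, HSPB1, HSPA8 and CCT2 were higher, and DNAJA1, BAG3, CCT4 and CCT7 were lower, while the factors HSF1 and HSF2 did not pass the test.

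Of the 81 genes, 74 had enough counts for edgeR's quasi-likelihood test, which compared POLK sgRNA with control sgRNA at an adjusted p under 0.05 over all 13930 genes tested. The 7 others, DNAJB13, DNAJB7, DNAJB8, DNAJC5B, DNAJC5G, HSPB3 and HSPB7, were at most at 0.214 CPM in any library. By this test 41 of the 74 changed (55.4%), against 64.3% of all genes tested. They split into 15 that rose (20.3%, against 32.8% of all genes) and 26 that fell (35.1%, against 31.6%). The same shares of all genes are the background for each family and list count given below. Levels did not overlap between the groups for 49 of the 74 (66.2%), and for 67.7% of all genes (34.6% higher, 33.1% lower). The median log2 fold change of the chaperone genes was −0.01 and that of all genes 0.01, and the median absolute change was 0.145 and 0.184. Most changes were small, and 30 of the 41 lay under 0.322 on the log2 scale, a change of about 25%. Tested against a change of at least 25%, 8 of the 74 passed (10.8%), with 5 higher and 3 lower, against 20.7% of all genes, 11.9% higher and 8.79% lower.

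**Figure D1:**
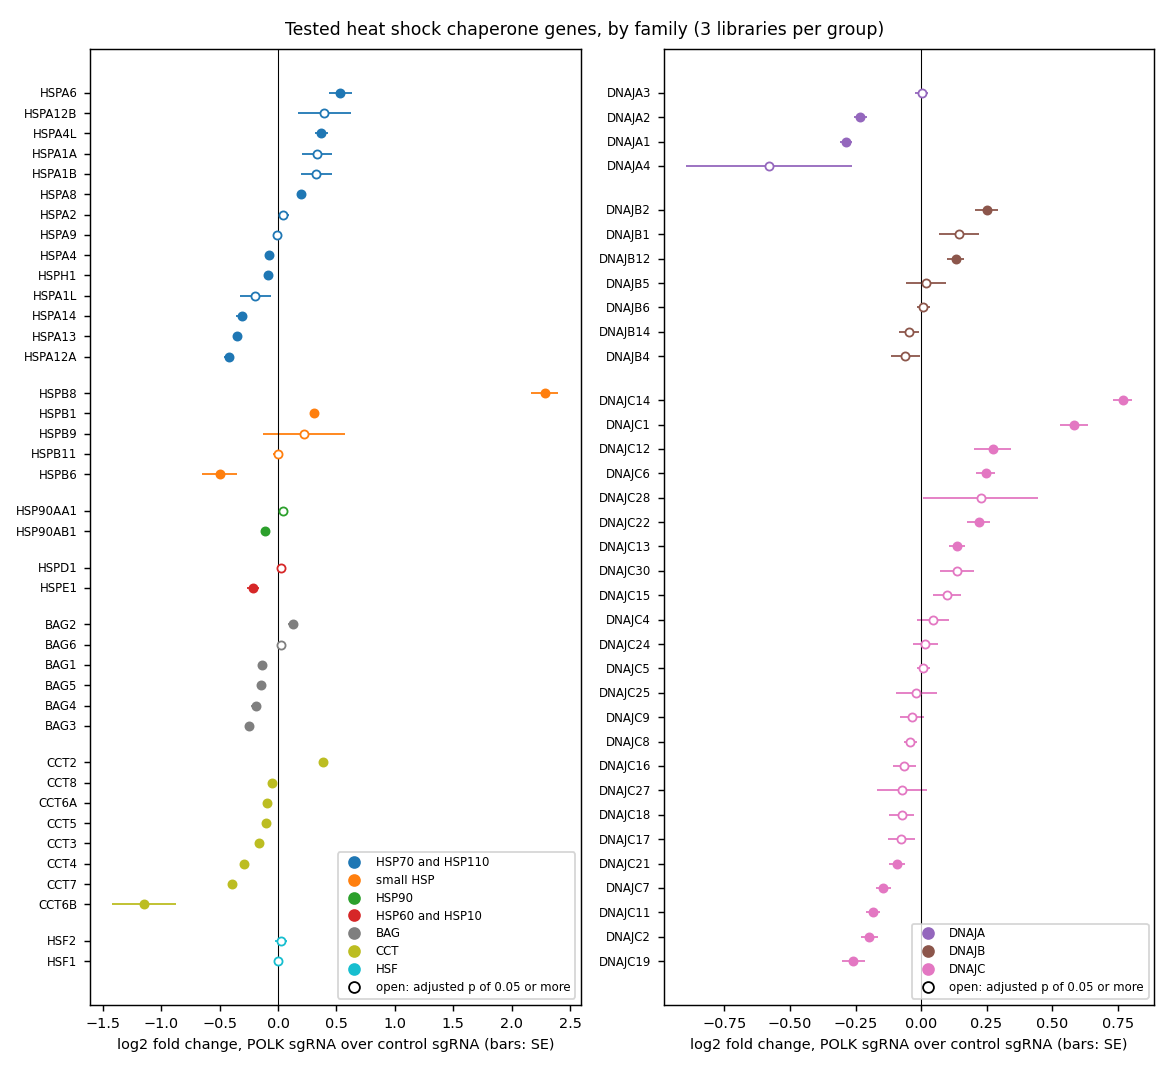
Log2 fold change (POLK sgRNA over control sgRNA, points with standard error, 3 libraries a group) of the 74 chaperone genes tested, grouped by family. Filled points passed edgeR's quasi-likelihood test (15 higher, 26 lower), open points did not, the panels have different scales, and HSPB8 at 2.28 and CCT6B at −1.15 lie farthest from 0.

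The factors that drive the heat shock response did not pass the test at the RNA level. HSF1, the main stress-activated factor, had 116, 113 and 114 CPM with POLK sgRNA, against 117, 116 and 109 CPM with control sgRNA. HSF2, a related factor, had 16.9, 18.6 and 17.8 CPM with POLK sgRNA, against 18.0, 17.9 and 16.3 CPM with control sgRNA. Both overlapped between the groups, with log2 fold changes of 0.00 and 0.02 and adjusted p of 0.95 and 0.711. RNA levels do not show how active either protein was.

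Among the 14 HSP70 and HSP110 genes, all tested, 3 rose, 5 fell and 6 did not pass. The sum of the family was 4038 ± 3.76 CPM with POLK sgRNA and 3784 ± 37.0 CPM with control sgRNA (SD, n = 3 each), which is 107% of control sgRNA, and HSPA8 made up most of it. The promoters of 4 of these genes and of 2 small heat shock protein genes described further on are shown. All 6 had a positive log2 fold change, though HSPA1A and HSPA1B did not pass the test. Other chaperone genes whose promoters hold the same letters rose, fell or did not pass, as given below. The 6 promoters shown were picked by hand with earlier results of these data known, so the shared direction is not a result. Each is the 250 bases before the RefSeq start on GRCh38.p14, 5′ to 3′ on the gene's own strand, with capitals on every match to GAANNTTC or TTCNNGAA, a pair of inverted repeats of the heat shock element. For all but HSPA6 that start lies inside the GENCODE extent of the gene.
HSPA1A, chr6:31815293-31815542, plus strand: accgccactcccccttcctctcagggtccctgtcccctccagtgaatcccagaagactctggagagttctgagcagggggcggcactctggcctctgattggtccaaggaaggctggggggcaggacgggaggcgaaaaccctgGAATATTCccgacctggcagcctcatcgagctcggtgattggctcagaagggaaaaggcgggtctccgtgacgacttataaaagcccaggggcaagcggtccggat
HSPA1B, chr6:31827488-31827737, plus strand: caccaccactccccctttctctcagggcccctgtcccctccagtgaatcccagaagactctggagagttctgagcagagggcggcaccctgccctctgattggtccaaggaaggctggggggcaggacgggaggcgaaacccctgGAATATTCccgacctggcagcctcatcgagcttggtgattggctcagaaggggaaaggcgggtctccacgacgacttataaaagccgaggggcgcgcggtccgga
HSPA6, chr1:161524290-161524539, plus strand: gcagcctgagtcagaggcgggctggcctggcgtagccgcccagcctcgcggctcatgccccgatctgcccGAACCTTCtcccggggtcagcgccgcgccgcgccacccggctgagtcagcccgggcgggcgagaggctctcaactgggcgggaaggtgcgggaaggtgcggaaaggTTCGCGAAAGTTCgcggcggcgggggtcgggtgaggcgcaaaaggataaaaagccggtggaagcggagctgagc
HSPA8, chr11:123062137-123062386, minus strand: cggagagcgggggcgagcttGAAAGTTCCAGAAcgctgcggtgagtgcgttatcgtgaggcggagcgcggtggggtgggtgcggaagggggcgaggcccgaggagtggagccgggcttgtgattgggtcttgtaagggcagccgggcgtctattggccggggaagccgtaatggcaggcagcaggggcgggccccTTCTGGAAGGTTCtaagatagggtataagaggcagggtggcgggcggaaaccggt
HSPB1, chr7:76302423-76302672, plus strand: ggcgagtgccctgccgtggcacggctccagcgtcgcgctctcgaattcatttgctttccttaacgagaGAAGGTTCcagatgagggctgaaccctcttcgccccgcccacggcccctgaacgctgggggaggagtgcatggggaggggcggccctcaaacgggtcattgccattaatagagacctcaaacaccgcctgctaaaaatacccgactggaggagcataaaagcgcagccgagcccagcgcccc
HSPB8, chr12:119178681-119178930, plus strand: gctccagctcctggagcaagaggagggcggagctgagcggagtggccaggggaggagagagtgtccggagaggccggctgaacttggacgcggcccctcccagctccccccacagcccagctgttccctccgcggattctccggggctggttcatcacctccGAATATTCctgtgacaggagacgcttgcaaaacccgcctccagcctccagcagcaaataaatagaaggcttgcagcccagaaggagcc

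These letters were searched in the RefSeq promoters of all 71 chaperone genes that had an entry, and each pair reads as itself on both strands. At least 1 pair stood in 15 of the 71 (21.1%), against 949 of the 10842 promoters of tested genes (8.75%). Overlapping pairs can make 3 repeats in a row, which is GAANNTTC followed after NN by GAA, or the reverse complement of that. Such runs stood in 3 of the 71 (4.22%), those of HSPA6, HSPA8 and DNAJB6, which were all tested. That is 4.6% of the 65 promoters of tested chaperone genes, against 0.295% of the promoters of all tested genes. HSPA8 holds 2 such runs and HSPA6 holds 1, whereas HSPA1A, HSPA1B, HSPB1 and HSPB8 hold a single pair, which begins 106, 105, 182 and 88 bases before the start. Of the 15 genes with a pair, 13 were tested: BAG2, HSPA6, HSPA8, HSPB1 and HSPB8 rose, and CCT6B, DNAJA1 and HSPB6 fell. The others tested, DNAJB6, DNAJC15, HSPA1A, HSPA1B and HSPA1L, did not pass. Of all genes tested, 32.8% rose and 31.6% fell, and so few genes were not tested against those shares. The promoters of the 3 that fell are not shown above. A match describes the letters only, and looser forms of the element were not searched.

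HSPA8 (chr11:123057489-123063230, minus strand), the constitutive cytosolic HSP70, was at 2259, 2262 and 2256 CPM with POLK sgRNA, against 1964, 1995 and 1969 CPM with control sgRNA. The groups stood well apart, and the 3 POLK sgRNA libraries were nearly identical. HSPA8 rose by 0.19 ± 0.02 on the log2 scale (SE, adjusted p = 2.65e-10). HSPA6 (chr1:161524540-161526910, plus strand), which is strictly stress-induced and has no mouse counterpart, was low in all libraries, at 4.29, 4.77 and 4.76 CPM with POLK sgRNA, against 3.10, 3.13 and 3.27 CPM with control sgRNA. It rose by 0.53 ± 0.10 on the log2 scale (adjusted p = 9.89e-06), but 45.5% of its 50-base stretches also occur in HSPA7, so its reads are uncertain. HSPA4L, an HSP110-type exchange factor, rose by 0.37 ± 0.05 (adjusted p = 3.6e-07), with 17.8, 17.8 and 19.1 CPM with POLK sgRNA, against 14.6, 14.7 and 13 CPM with control sgRNA.

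HSPA1A and HSPA1B, the classical inducible pair, lie side by side at chr6:31815464-31817946 and chr6:31827735-31830255 on the plus strand, and 235 of 249 aligned promoter bases are the same (94.4%). HSPA1A was at 80.6, 101 and 108 CPM with POLK sgRNA, against 71.4, 77.6 and 79.8 CPM with control sgRNA. HSPA1B was at 92.3, 112 and 120.4 CPM with POLK sgRNA, against 78.1, 87.6 and 92.3 CPM with control sgRNA. In both groups and for both genes the library numbered 1 was lowest. All POLK sgRNA libraries lay above all control sgRNA libraries for each gene, though by less than 1 CPM, and neither passed the test, with log2 fold changes of 0.33 ± 0.13 for each and adjusted p of 0.0896 and 0.0901. They share 72.6% and 73.5% of their 50-base stretches, chiefly with each other, so the split of reads between them is uncertain. DNAJB1, the HSP40 partner that is induced along with them, varied in the same way: it had 337, 379 and 393 CPM with POLK sgRNA, against 315, 339 and 347 CPM with control sgRNA. Here the groups overlapped, and the log2 fold change of 0.15 ± 0.08 had an adjusted p of 0.166. Within groups the log2 values of HSPA1A, HSPA1B and DNAJB1 had SDs of 0.166, 0.165 and 0.0972, larger than those of 99.9%, 99.8% and 98.8% of the 4595 genes with at least 50 CPM, whose median SD was 0.0312. Left without POLK sgRNA replicate 1, all 3 passed, at 0.45 (adjusted p = 4.14e-07), 0.44 (0.00772) and 0.21 (0.000236). No other single library took any of the 3 past the threshold when left out. With DESeq2 in place of edgeR, HSPA1A and HSPA1B passed at adjusted p of 0.0226 and 0.026. A block for the replicate number in the edgeR fit took all 3 genes past the threshold, HSPA1A and HSPA1B at adjusted p of 4.49e-05 and 4.33e-09.

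**Figure D2:**
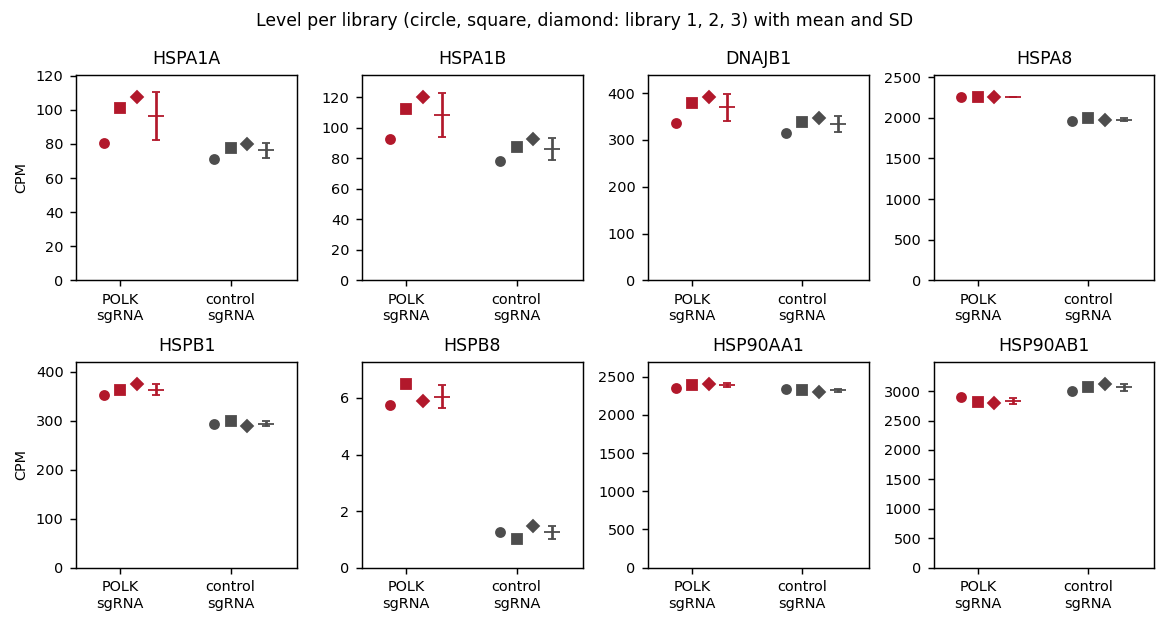
Level in CPM of 8 chaperone genes in each library (circle, square and diamond for libraries 1, 2 and 3), with mean and SD of the POLK sgRNA and control sgRNA groups, on axes that start at 0. HSPA1A, HSPA1B and DNAJB1 spread widely within each group, HSPA8 and HSPB1 stand apart between the groups, and HSPB8 has 5.74 to 6.5 CPM with POLK sgRNA against 1.01 to 1.48 CPM with control sgRNA.

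Other HSP70-type genes fell or did not pass. HSPA9, the mitochondrial HSP70, was at 581, 561 and 559 CPM with POLK sgRNA, against 565, 576 and 567 CPM with control sgRNA, and its groups overlapped (log2 fold change −0.01, adjusted p = 0.824). The HSP110 exchange factors HSPH1 and HSPA4 fell by 0.09 (adjusted p = 0.00115) and 0.08 (adjusted p = 0.0019). Larger decreases were those of HSPA12A, a divergent family member, with 19.1, 19.9 and 19.9 CPM with POLK sgRNA, against 26.2, 26.3 and 26.2 CPM with control sgRNA, and of HSPA13, the microsomal member, with 42.4, 41.0 and 39.7 CPM with POLK sgRNA, against 51.8, 52.8 and 52.1 CPM with control sgRNA. Both were separated cleanly, with log2 fold changes of −0.42 ± 0.04 (adjusted p = 2.06e-10) and −0.35 ± 0.03 (adjusted p = 8.38e-11). HSPA14 and DNAJC2, which together form the human ribosome-associated complex that receives new chains at the ribosome, fell by 0.31 ± 0.05 (adjusted p = 5.98e-07) and 0.20 ± 0.03 (adjusted p = 1.85e-06). HSPA14 had 17.0, 16.9 and 16.7 CPM with POLK sgRNA, against 20.3, 21.3 and 21.2 CPM with control sgRNA, and it overlaps a second gene identifier that carries the same symbol.

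The summed small heat shock proteins shifted most of the 10 families as percent of control sgRNA, with 399 ± 12 CPM with POLK sgRNA and 325 ± 5.0 CPM with control sgRNA (SD, n = 3 each), or 123% of control sgRNA. Of 5 genes tested, 2 rose and 1 fell. HSPB1 (HSP27; chr7:76302544-76304295, plus strand), which binds actin and holds unfolded clients, accounts for nearly all of the sum. It was at 353, 364 and 376 CPM with POLK sgRNA, against 294, 299.7 and 289 CPM with control sgRNA, with no overlap, and its log2 fold change was 0.31 ± 0.02 (adjusted p = 3.58e-13). HSPB8 (HSP22; chr12:119178642-119221131, plus strand), the partner of BAG3 in selective autophagy, was at 5.74, 6.5 and 5.90 CPM with POLK sgRNA, against 1.26, 1.01 and 1.48 CPM with control sgRNA. Every POLK sgRNA library thus lay far above every control sgRNA library. The log2 fold change of 2.28 ± 0.12 (adjusted p = 6.36e-18) was the highest of all 74 genes, at a low level of RNA. HSPB6 (HSP20), at a low level, fell by 0.50 ± 0.15 (adjusted p = 0.00435), with 1.2, 1.1 and 1.2 CPM with POLK sgRNA, against 1.82, 1.63 and 1.65 CPM with control sgRNA, and 39.8% of its 50-base stretches are shared with an antisense gene. HSPB11, which is a subunit of intraflagellar transport in spite of its symbol, did not pass (on average 27.7 CPM with POLK sgRNA and 27.6 CPM with control sgRNA, adjusted p = 0.986).

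The cytosolic HSP90 genes were among the most abundant of all. HSP90AB1, the constitutive form, was at 2894, 2819 and 2801 CPM with POLK sgRNA, against 3005, 3077 and 3122 CPM with control sgRNA. HSP90AA1, the inducible form, was at 2358, 2395 and 2406 CPM with POLK sgRNA, against 2342, 2328 and 2299 CPM with control sgRNA. Neither gene's groups overlapped, and they lay on opposite sides. HSP90AB1 fell by 0.11 ± 0.02 (adjusted p = 1.84e-05), whereas HSP90AA1, at 0.04 ± 0.02, did not pass (adjusted p = 0.0906). That value for HSP90AA1 passed with limma-voom (adjusted p = 0.0481), with library sizes unscaled (0.0103), without POLK sgRNA replicate 1 (0.0499) and with neighbouring genes as offset (0.0325). Their sum was 5224 ± 24.3 CPM with POLK sgRNA and 5391 ± 39.3 CPM with control sgRNA. Of 18 co-chaperones of HSP90, 4 rose and 6 fell, among them FKBP5, a steroid-induced immunophilin (0.30), PTGES3, the p23 protein that closes the clamp (0.42), and CHORDC1, which is known to be heat-inducible (−0.22). PTGES3 lies on chromosome 12 among genes with a median log2 fold change of 0.61, above its own, and relative to chromosomal neighbours 3 of the 18 were higher and 9 lower.

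In the mitochondrial matrix the RNA of the folding chamber stood at 101% of control sgRNA in sum. HSPD1 (HSP60) was at 847, 828 and 819 CPM with POLK sgRNA, against 821, 819.6 and 818 CPM with control sgRNA, and did not pass (log2 fold change 0.02, adjusted p = 0.387). HSPE1 (HSP10), its lid, was at 18.9, 19.1 and 18.2 CPM with POLK sgRNA, against 20.4, 23.4 and 21.2 CPM with control sgRNA. All POLK sgRNA libraries were below all control sgRNA libraries, and HSPE1 fell by 0.22 ± 0.05 (adjusted p = 0.000312). Both genes share a promoter and 52.9% of HSPE1's 50-base stretches recur in other genes, among them the readthrough gene HSPE1-MOB4, so that its level is uncertain and is not set against that of HSPD1. Of 14 mitochondrial partners and proteases, not all of them matrix proteins, 6 rose and 4 fell, all of them slightly. CLPB (0.23), a disaggregase, TRAP1 (0.20), the mitochondrial HSP90, and LONP1 (0.18), a protease, were higher, and SPG7 (−0.23), a protease, and GRPEL1 (−0.15), the exchange factor of HSPA9, were lower.

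The DNAJA class, the HSP40 proteins closest to the bacterial form, dropped to 594 ± 11.6 CPM in sum with POLK sgRNA, against 688 ± 7.1 CPM with control sgRNA (SD, n = 3 each). DNAJA1 (chr9:33025211-33039907, plus strand), the main cytosolic member, was at 338, 328 and 319 CPM with POLK sgRNA, against 395, 399 and 407 CPM with control sgRNA. DNAJA2 was at 127, 125 and 128 CPM with POLK sgRNA, against 146, 148 and 151 CPM with control sgRNA. The groups were well separated for both genes, and they fell by 0.29 ± 0.02 (adjusted p = 1.04e-12) and 0.23 ± 0.02 (adjusted p = 6.32e-10). DNAJA3, the mitochondrial member, overlapped between the groups (139 CPM on average in each, adjusted p = 0.948), and the low DNAJA4 did not pass.

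Of the 7 DNAJB genes tested, 2 rose and none of the 7 fell. DNAJB2, which binds ubiquitinated clients, rose by 0.25 ± 0.04 (adjusted p = 8.11e-06), and DNAJB12, anchored in the endoplasmic reticulum membrane, by 0.13 ± 0.03 (adjusted p = 0.000815). DNAJB6, which keeps polyglutamine proteins from aggregating, did not pass (log2 fold change 0.01, adjusted p = 0.791).

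The DNAJC class is mixed in function, and of 24 genes tested 6 rose and 5 fell. DNAJC14, which escorts membrane receptors out of the endoplasmic reticulum, was at 52.4, 52.1 and 55.3 CPM with POLK sgRNA, against 30.6, 32.1 and 30.9 CPM with control sgRNA. Its log2 fold change of 0.77 ± 0.04 (adjusted p = 4.35e-19) had the smallest p of the 74 genes, though 54.4% of its 50-base stretches are shared, chiefly with the overlapping AC023055.1 and ORMDL2. DNAJC1, a membrane protein of the endoplasmic reticulum, was at 18.1, 19.9 and 19.9 CPM with POLK sgRNA, against 13.3, 12.3 and 13 CPM with control sgRNA. Neither gene's groups overlapped, and DNAJC1 rose by 0.58 ± 0.05 (adjusted p = 1.69e-11). Smaller increases were those of DNAJC12 (0.27), a partner of the aromatic amino acid hydroxylases, DNAJC6 (0.25), the auxilin that uncoats clathrin vesicles, DNAJC22 (0.22) and DNAJC13 (0.14), an endosomal protein.

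Decreases in the DNAJC class were small. DNAJC19, of the mitochondrial import motor, had 21.3, 22.9 and 23.4 CPM with POLK sgRNA, against 26.7, 27.9 and 25.9 CPM with control sgRNA, and fell by 0.26 ± 0.04 (adjusted p = 6.46e-06). DNAJC2, described with HSPA14, DNAJC11 (−0.18), which belongs to the mitochondrial inner membrane organising complex, DNAJC7 (−0.14), which contacts both HSP70 and HSP90, and DNAJC21 (−0.09), needed for assembly of the large ribosomal subunit, also fell. DNAJC5, the cysteine string protein, and DNAJC8, a spliceosome-associated protein, are abundant members that did not pass, at 0.01 and −0.04.

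BAG proteins bind the ATPase domain of HSP70, and of the 6 genes 4 fell, 1 rose and 1 did not pass. BAG3 (chr10:119651370-119677819, plus strand), a known HSF1 target that works with HSPB8, was at 177, 176 and 179 CPM with POLK sgRNA, against 209.7, 214 and 207 CPM with control sgRNA. The groups stood apart, and BAG3 fell by 0.25 ± 0.02 (adjusted p = 3.5e-11), in the opposite direction to its partner HSPB8. BAG4 (−0.19), BAG5 (−0.15) and BAG1 (−0.14) fell as well. BAG2, an inhibitor of the ubiquitin ligase STUB1, rose by 0.12 ± 0.04 (adjusted p = 0.00437), though 43.9% of its 50-base stretches are shared with other genes, RAB23 first among them. BAG6, which handles tail-anchored and mislocalised proteins, did not pass (0.02, adjusted p = 0.374). Of 10 adaptors and exchange factors of HSP70, 2 rose and 3 fell. STUB1, the ligase CHIP, was among the higher ones (0.19), and SGTB (−0.28) and ST13 (−0.14) were among the lower ones.

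The CCT chaperonin is a ring built from 8 kinds of subunit in equal numbers, one of them TCP1. All 8 CCT genes picked by the rule passed the test, 1 higher and 7 lower, while 32.8% of all genes tested were higher and 31.6% lower. The sum of the 8 genes was 4186 ± 49.8 CPM with POLK sgRNA and 4611 ± 52.6 CPM with control sgRNA (SD, n = 3 each), or 90.8% of control sgRNA. CCT2 (chr12:69585334-69601570, plus strand) was at 479.9, 474 and 465 CPM with POLK sgRNA, against 358, 357 and 370.1 CPM with control sgRNA, and stood at 131% of control sgRNA. CCT7 (chr2:73233420-73253021, plus strand) was at 724, 711 and 703 CPM with POLK sgRNA, against 928, 932 and 949 CPM with control sgRNA, and stood at 76.1%. CCT4 (chr2:61868089-61888804, minus strand) was at 479, 479.7 and 470.3 CPM with POLK sgRNA, against 586, 580.1 and 584 CPM with control sgRNA, and stood at 81.6%. None of these 3 genes overlapped between the groups, with CCT2 on the higher side and CCT4 and CCT7 on the lower. The direction of CCT2 turned when the change of its chromosomal neighbours was taken as offset (−0.21, adjusted p = 7.91e-10), and relative to neighbours none of the 8 genes was higher and 7 were lower. That adjusted p leaves out the spread among the neighbours.

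The log2 fold changes were 0.39 ± 0.02 for CCT2 (adjusted p = 1.4e-16), −0.39 ± 0.02 for CCT7 (adjusted p = 1.91e-17) and −0.29 ± 0.02 for CCT4 (adjusted p = 5.13e-14). CCT3 (−0.16), CCT5 (−0.10), CCT6A (−0.10) and TCP1 (−0.08) fell by less, and 49.8% of the 50-base stretches of CCT5 are shared, with an antisense gene and pseudogenes. CCT8 fell by 0.05 (adjusted p = 0.0346), a call that was lost with unscaled library sizes (adjusted p = 0.113), without a filter on low counts (0.0657) and without POLK sgRNA replicates 2 (0.0678) or 3 (0.171) or control sgRNA replicates 2 (0.0772) or 3 (0.0787). CCT6B, the testis form of the subunit, was near the filter limit, with 0.228, 0.342 and 0.306 CPM with POLK sgRNA, against 0.770, 0.604 and 0.562 CPM with control sgRNA, and a log2 fold change of −1.15 ± 0.27 (adjusted p = 0.000439). Per kilobase of exon, CCT2 averaged 109 CPM with POLK sgRNA and 83.7 CPM with control sgRNA, CCT7 198 CPM with POLK sgRNA and 261 CPM with control sgRNA, and TCP1 88.9 CPM with POLK sgRNA and 94.2 CPM with control sgRNA. On that scale, among the 8 ubiquitous subunits, CCT7 was the most abundant with control sgRNA and CCT2 the least, and the gap between them was narrower with POLK sgRNA. Of 13 partners of CCT, prefoldin and TCP1 included, 4 rose and 4 fell, with PDRG1 (0.71) and the prefoldin subunit PFDN5 (0.66) highest and the cofactors TXNDC9 (−0.37) and PDCL3 (−0.28) lowest. The median log2 fold changes of the chromosomal neighbours of these 4 genes were 0.63, 0.47, −0.25 and −0.30, and relative to neighbours 2 of the 13 were higher and 6 lower.

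**Figure D3:**
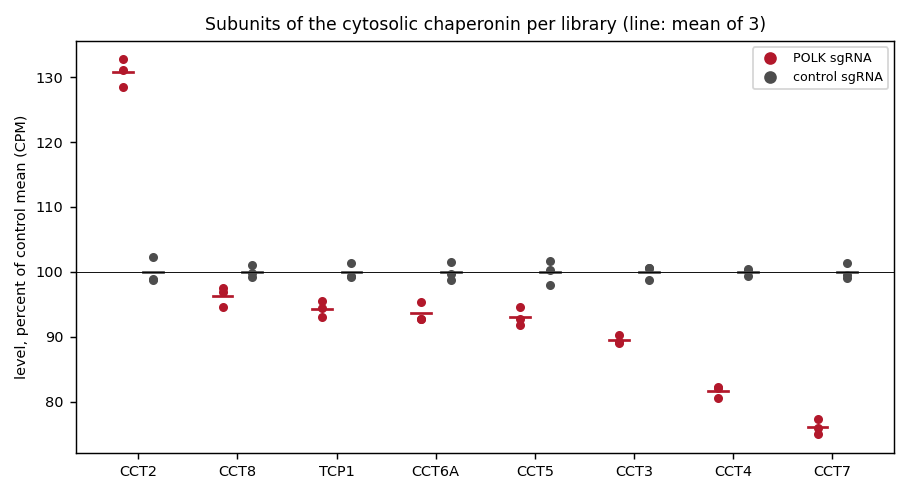
Level of the 8 ubiquitous subunits of the chaperonin, TCP1 included, in each library as percent of the subunit's mean CPM with control sgRNA, with POLK sgRNA left of control sgRNA and short lines at the means. CCT2 stands at 131% with POLK sgRNA, the other 7 lie below all control sgRNA libraries, and CCT7 is lowest at 76.1%. The axis does not start at 0.

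Several chaperone genes lie among chromosomal neighbours that were shifted in the same direction. For each gene the median log2 fold change of up to 40 nearest tested genes, 20 on each side, was taken on GRCh38. The 4 tested chaperone genes of chromosome 12 all rose, and all 4 sat among raised neighbours: the neighbour medians were 0.67 for HSPB8, 0.60 for CCT2, 0.54 for DNAJC14 and 0.54 for DNAJC22. On chromosome 2 the neighbours of CCT7 and CCT4 had medians of −0.19 and −0.18, and on chromosome 3 those of DNAJC19 had −0.25. In all, 9 chaperone genes had a neighbour median of at least 0.1 and 4 one of −0.1 or below. Among these, HSPA12B (neighbour median 0.58), DNAJC5 (0.15), HSF1 (0.11), DNAJC24 (0.10) and DNAJC27 (−0.26) did not pass the test themselves. The share of all genes with such medians is not given, so these counts cannot be called high or low. The genome copy number of the cells was not measured, and its part in these results was not tested.

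The neighbour median was also entered as an offset in the same edgeR fit, as a fixed value. These adjusted p therefore leave out how far the neighbours vary among themselves, and small gaps can pass. With the offset, HSPB8 was still 1.61 above its neighbours (adjusted p = 2.06e-13) and DNAJC14 0.23 above (adjusted p = 2.08e-06). CCT2 was then 0.21 below its neighbours (adjusted p = 7.91e-10) and DNAJC22 0.32 below (adjusted p = 1.33e-07), so both turned direction. CCT7 and CCT4 kept a decrease, of −0.20 (adjusted p = 4.36e-10) and −0.11 (adjusted p = 4.3e-05), while DNAJC19 (−0.0056), CCT5 (−0.02) and DNAJC21 (−0.05) no longer passed. HSF1, with a neighbour median of 0.11, was 0.11 below its neighbours (adjusted p = 0.000818), and DNAJC5, with 0.15, was 0.14 below (adjusted p = 1.17e-05). For genes with flat surroundings the values hardly differed: HSPA8 was 0.20 above its neighbours and DNAJA1 0.26 below. Relative to neighbours, 14 of the 74 chaperone genes were higher and 30 lower, while 61.1% of all genes passed, 29.9% higher and 31.2% lower.

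**Figure D4:**
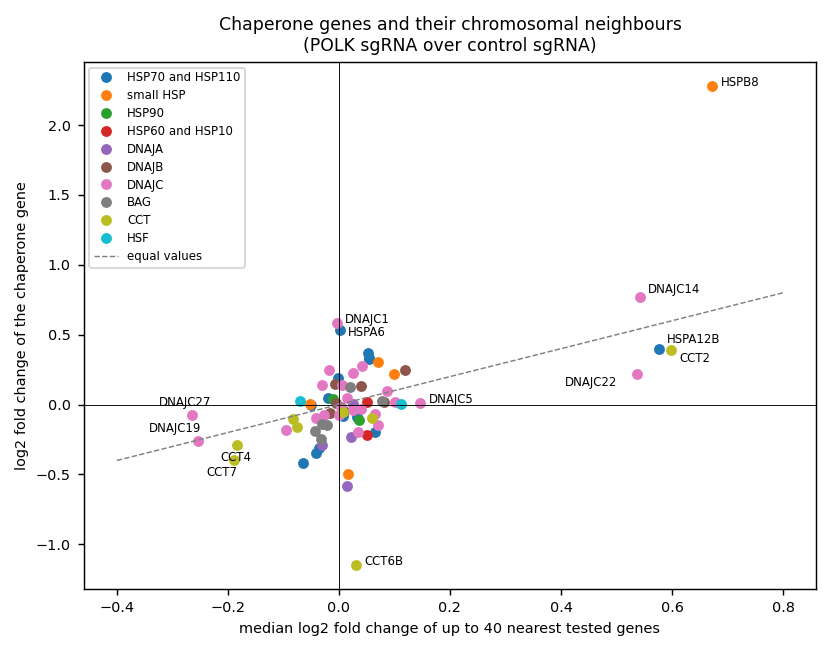
Log2 fold change (POLK sgRNA over control sgRNA) of each tested chaperone gene against the median log2 fold change of its nearest tested genes, with a line where both are equal. HSPB8, CCT2, DNAJC14 and DNAJC22, all of chromosome 12, lie at neighbour medians of 0.54 to 0.67, and HSPB8 alone of them lies far above the line.

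Genes outside the rule but tied to the heat shock response did not share 1 direction either. Of 11 regulators of the factors and other HSF1 targets that are not among the 81 genes, 3 rose and 4 fell. SERPINH1, the collagen chaperone HSP47, was higher (0.51), and UBB, a polyubiquitin gene, was lower (−0.39). CRYAB, a small heat shock protein whose symbol the rule does not pick, was lower as well (−1.49). Its level was low, on average 0.52 CPM with POLK sgRNA and 1.48 CPM with control sgRNA. A list of 13 chaperones of the endoplasmic reticulum, with the 5 left out among them, moved much more in 1 direction. Of these, 12 were lower and 1 higher, with a median change of −0.46. Of the 74 genes picked by the rule and tested, 26 were lower and 15 higher, with a median of −0.01. The list does not hold every chaperone of the endoplasmic reticulum. Of those that the rule picked, DNAJC1 (0.58) and DNAJB12 (0.13) were higher, HSPA13 (−0.35) was lower and DNAJB14 did not pass. HSPA5 (BiP) fell by 0.63, the exchange factor HYOU1 by 1.02 and DNAJB11 by 0.87, and HSP90B1 (GRP94) rose by 0.09. HSP90B1 lies on chromosome 12 among neighbours with a median of 0.59, and relative to neighbours all 13 genes were lower. Of all genes tested, 31.6% were lower and 32.8% higher, and relative to neighbours 31.2% were lower and 29.9% higher. No test of the difference between these lists was made.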

How the data were processed

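RNA-seq of 6 A375 libraries was used, grouped by the sgRNA in the labels. The authors deposited raw counts per gene for each library, whole numbers that were not normalized. Per the labels' protocols, TruSeq RNA V2 libraries were made, a kit that does not mark strand, so overlapping and antisense genes are uncertain. The submitters' processing notes name GRCh38 and, without versions, STAR, Trimmomatic, FastQC and DESeq2. The counter and annotation release are not given there or in the labels.

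From these counts, edgeR 4.0.16 in R 4.3.3 kept 13930 of 16934 genes (filterByExpr, at least 10 counts and 15 in total) and scaled libraries by TMM. POLK sgRNA was compared with control sgRNA by the robust quasi-likelihood F test (two-sided, without covariates). P-values were adjusted by Benjamini-Hochberg across the 13930 genes and called under 0.05. Standard errors were derived from the F statistic, and CPM use the TMM-scaled library sizes. Alternatives were DESeq2 1.42.0, limma-voom (limma 3.58.1), other scalings and filters, a test against a change of 25%, a replicate block, neighbours as offset and leaving out each library. The fit was tested on simulated data.

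The 81 genes, the lists of other genes and the rule for named genes were chosen with earlier results of these data known. The rule took, in each family, the 2 most abundant genes and the 2 largest changes in each direction among called genes of at least 1 CPM, and likewise the largest changes of each list. HSPA1A, HSPA1B, HSPA4, HSPH1, HSPA14 and the other genes outside it were named for their role or after their values were seen. One gene that the rule names is not reported here. Positions and exon lengths came from GENCODE 29 and promoters from RefSeq. Shared 50-base stretches were counted against all other genes' transcripts.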

Additional observations from a re-analysis of the deposited data

How the results depend on the processing

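Values are POLK sgRNA over control sgRNA. Tested against a change of at least 25%, 5 chaperone genes were higher and 3 lower, and 1653 and 1224 of all genes, since that test asks for larger changes. Leaving out single libraries gave 15 to 20 chaperone genes higher and 25 to 27 lower, and 4181 to 4441 and 4091 to 4286 of all genes. Over many genes at once, same-numbered libraries did not deviate together (correlations of −0.036, −0.0068 and −0.042), so the main test does not take the numbers as pairs. That does not hold for each gene, since HSPA1A, HSPA1B and DNAJB1 rose from library 1 to library 3 in both groups. A replicate block gave 18 chaperone genes higher and 25 lower, and 4483 and 4290 of all genes, with HSPA1A (0.33, adjusted p = 4.49e-05), HSPA1B (4.33e-09) and DNAJB1 (2.43e-05) passing and CCT8 (0.0593) not.

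Relative to neighbours, the direction turned for CCT2 (−0.21), DNAJC22 (−0.32), DNAJC5 (−0.14), HSF1 (−0.11), BAG6 (−0.054), HSPD1 (−0.029), DNAJA3 (−0.023) and HSPA9 (0.044), and the cause was not tested. It also turned for 4 genes not described above, HSPA12B (−0.18), DNAJC27 (0.19), DNAJC24 (−0.084) and DNAJB5 (−0.062). The offset was a fixed value, so the spread among the neighbours is not counted in these results. Under the other settings HSPA9 was at 0.0096 with unscaled library sizes. HSPB11 was at −0.0057, −0.0018 and −0.0043 with DESeq2's size factors, with a minimum mean of 1 CPM and with DESeq2. Under those 3 settings DNAJA3 was at −0.0045, −0.00060 and −0.0037, and HSF1 at −0.0045, −0.00057 and −0.0037. Without single libraries the values spanned −0.023 to 0.0046 for HSPA9, −0.027 to 0.016 for HSPB11, −0.014 to 0.024 for DNAJA3, −0.0095 to 0.027 for DNAJB6, −0.0020 to 0.033 for BAG6, −0.031 to 0.013 for HSF1 and −0.026 to 0.061 for HSF2. Depth limits chiefly the tested genes below 1 CPM, such as HSPB9, DNAJA4, HSPA12B, DNAJC28 and CCT6B.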
